A study of Mus musculus with 9 samples.

Results

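The genes described here are 10 transcription factor and early response genes: the Fos family (Fos, Fosb, Fosl1, Fosl2), the Jun family (Jun, Junb, Jund), and Egr1, Ier3 and Myc. They were taken by symbol from the deposited table, which lists 24972 gene names (the list itself was drawn up with earlier results of these data known). All 10 were found. For testing, a gene had to reach a normalized count of at least 10 in at least 3 libraries, and 9 of the 10 did. Fosl1 did not.

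Neuro2a, a mouse neuroblastoma line labelled wild type, was grown in DMEM with 10% FBS and treated with 4-methylumbelliferyl-β-D-xylopyranoside, a xyloside that primes glycosaminoglycan chains away from their core proteins. DMSO cells received the solvent alone, LCX cells 500 nM xyloside and HCX cells 1 mM. Each group had 3 samples. The titles of the LCX and HCX samples give 48 h, and those of the DMSO samples give no time. The study's text puts RNA extraction at 48 h for all groups, although a figure legend of the study names a later time. All groups share 1 cell line and the growth medium. Whether replicates were separate cultures is not stated, so the p-values measure only the spread between these samples, which may be technical. Total normalized counts ran from 34949840 to 36667123 per library.

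AP-1 is a dimer of bZIP (basic leucine zipper) proteins, a Jun protein paired with a Fos protein or with another Jun protein, that binds the sequence TGANTCA and its relatives. The genes of several subunits, with Egr1, Myc and Ier3, are immediate early genes: growth factors, serum and, in neurons, depolarization induce them through MAP kinases without new protein synthesis, and their RNAs are short-lived. At a single late time, a library therefore shows the standing level of these RNAs. The study's text does not say whether serum was present while the sequenced cells were treated.

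At this late time HCX cells held more Fos and Jun RNA and less Ier3 RNA than DMSO cells. Fos was 1.34-fold, Jun 1.16-fold and Ier3 0.771-fold the DMSO level. These were the 3 members called of the 9 tested, where called means an adjusted p below 0.05 from limma, a linear model fitted over all genes, with Benjamini-Hochberg adjustment. Over the 13179 genes tested, 5.73% were called higher in HCX and 13.5% lower against DMSO, 19.2% in either direction. That split, 755 higher and 1781 lower, was 1307 higher and 966 lower after library-size scaling. Against LCX, Jun was called higher and Ier3 lower, 2 of 9 members, where 8.35% of all genes were called higher, 8.95% lower and 17.3% in either direction. Between LCX and DMSO 0 members were called, and 0 of the 9 tested members reached a 2-fold change in any comparison. Of all genes, 0.819% were called with 2-fold or more in HCX against DMSO and 0.797% in HCX against LCX.

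The 250 bases before the RefSeq start are shown for the 3 genes that were called and for Junb, which was not, with short motifs in capitals: the TATA motif TATAA, the CCAAT box, TGACG (the CRE half-site that CREB and ATF factors bind) and TGACATCA (a variant of the AP-1 and CRE sites). Coordinates are on GRCm38.p6, the sequences come from RefSeq, and each reads 5′ to 3′ along the gene.
Fos chr12:85473640-85473889 (+ strand): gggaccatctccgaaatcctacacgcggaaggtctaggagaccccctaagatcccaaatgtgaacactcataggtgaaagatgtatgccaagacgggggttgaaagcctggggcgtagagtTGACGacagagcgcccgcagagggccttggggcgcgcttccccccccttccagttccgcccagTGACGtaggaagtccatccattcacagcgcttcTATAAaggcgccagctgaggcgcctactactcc
Jun chr4:95052223-95052472 (- strand): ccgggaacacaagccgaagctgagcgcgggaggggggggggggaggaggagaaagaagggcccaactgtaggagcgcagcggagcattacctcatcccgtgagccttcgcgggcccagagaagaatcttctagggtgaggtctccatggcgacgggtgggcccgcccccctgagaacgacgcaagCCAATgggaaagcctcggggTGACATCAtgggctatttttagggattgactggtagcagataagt
Ier3 chr17:35821463-35821712 (+ strand): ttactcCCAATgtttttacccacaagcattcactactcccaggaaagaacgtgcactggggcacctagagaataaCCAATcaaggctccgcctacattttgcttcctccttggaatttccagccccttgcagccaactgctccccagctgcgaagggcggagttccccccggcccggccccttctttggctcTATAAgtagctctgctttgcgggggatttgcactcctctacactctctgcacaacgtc
Junb chr8:84978749-84978998 (- strand): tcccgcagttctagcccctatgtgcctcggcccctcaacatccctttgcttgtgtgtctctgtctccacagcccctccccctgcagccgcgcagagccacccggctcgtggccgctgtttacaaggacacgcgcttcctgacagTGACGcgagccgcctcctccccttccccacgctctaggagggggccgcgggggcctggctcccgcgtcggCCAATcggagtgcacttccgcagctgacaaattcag
Positions count back from the start, with -1 the last base shown. Fos had TATAA at -33 to -29 and TGACG at -129 to -125 and -66 to -62. Jun had CCAAT at -65 to -61 and TGACATCA at -45 to -38. Ier3 had TATAA at -58 to -54 and CCAAT at -244 to -240 and -175 to -171, and Junb had CCAAT at -36 to -32 and TGACG at -106 to -102.

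Both strands of the same stretch were searched for the motif TATAA, the CCAAT box, the half-site TGACG, the full CRE TGACGTCA (which contains the half-site), the AP-1 site TGANTCA, its variant TGACATCA, the E box CACGTG, the Egr site GCGTGGGCG and the CArG box, in 7 of the 10 members for which a sequence was at hand (not Fosl1, Egr1 or Myc). Fosb had TGACG at -60 to -56, and no match was found for Fosl2 and Jund. Their RefSeq starts differ from the GENCODE places given below. The Jund window (chr8:70697489-70697738) ends upstream of its gene, and the Fosl2 window (chr5:32136222-32136471) lies inside its gene. So these are not the bases just before the genes as placed here. The Ier3 and Fosb windows run into the start of their genes as placed here, and the Junb window stops short of its gene. Their motif positions therefore count from the RefSeq start only. The Fos and Jun windows end at the base before the gene. Of 32851 such windows of all genes, 22.8% held TATAA, 33.8% CCAAT, 17.8% TGACG and 2.93% TGACATCA. The motifs found in none of the 7 were rare in general: TGACGTCA was in 1.55% of windows, TGANTCA in 6.75%, CACGTG in 6.02%, GCGTGGGCG in 0.536% and the CArG box in 1.47%. A match describes letters only. Bases farther upstream than these 250 were not searched, so a motif not found here may still lie there. No motif stood before all 3 called members: TATAA was before Fos and Ier3, CCAAT before Jun and Ier3.

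**Figure D1:**
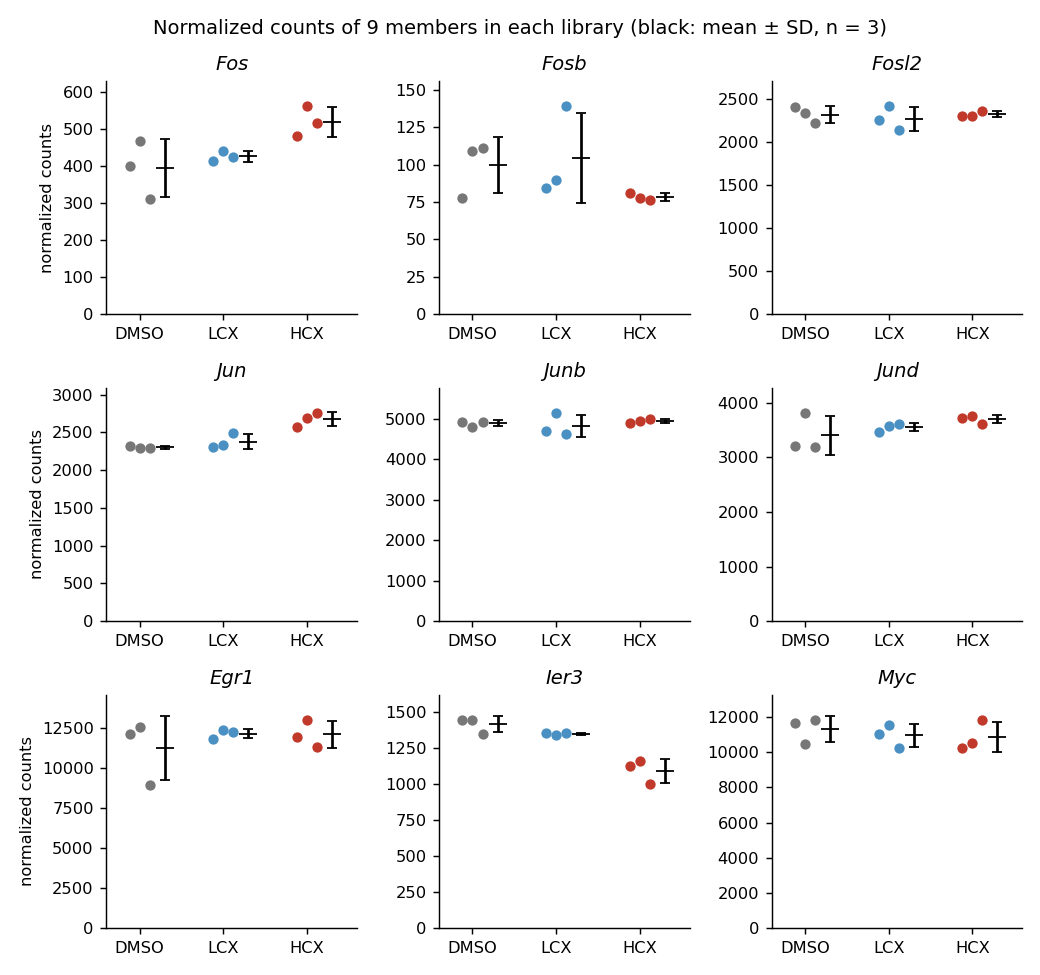
Normalized counts of the 9 members tested, without Fosl1, in each of the 9 libraries (y axis, linear, a scale per gene). DMSO, LCX and HCX are in dose order on the x axis, with points for libraries and bars for the mean and SD. Fos and Jun lie above and Ier3 below DMSO in all 3 HCX libraries, while Egr1 and Fos are both low in DMSO 3.

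Places of genes are on GRCm38 (GENCODE). Fos (chromosome 12, 85473890 to 85477273, + strand), the prototype of the inducible Fos proteins, which bind DNA only with a Jun partner, had 400.4, 469 and 312 normalized counts in DMSO libraries, 414, 442 and 424 in LCX libraries and 482, 562 and 518 in HCX libraries. A normalized count is the deposited value, a read count divided by a factor for its library. The 3 HCX libraries were above all others, and DMSO 3 was the lowest of the 9. The log2 fold change on the log2(value + 1) scale was 0.42 against DMSO (SE 0.12, 95% interval 0.17 to 0.67, limma adjusted p = 0.0192). This call was lost without DMSO 3 (0.26, adjusted p = 0.111) and without HCX 2 (0.36, adjusted p = 0.0831). Against LCX it was 0.28 (interval 0.03 to 0.54, adjusted p = 0.113), and this passed the threshold with limma on the 6 libraries alone (adjusted p = 0.0384) or without DMSO 3 (adjusted p = 0.0474). 3 libraries against 3 allow no exact permutation p below 0.1, so the p-values rest on the model fitted across genes.

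Fosb (chromosome 7, 19302696 to 19310051, - strand), which also makes the short ΔFosB form in neurons, was low, with 77.8, 109 and 111 normalized counts in DMSO libraries, 84.6, 89.5 and 139 in LCX libraries and 81.1, 77.4 and 76.6 in HCX libraries. The HCX libraries lay together, below every LCX library, with DMSO 1 among them. Its log2 fold change was -0.32 against DMSO (interval -0.78 to 0.13, limma adjusted p = 0.328) and -0.37 against LCX (interval -0.83 to 0.08, limma adjusted p = 0.257), so neither passed and the intervals allow a fall of about the size of that of Ier3 or more. Fosl2 (chromosome 5, 32135801 to 32157842, + strand), a partner with a weak activation domain, had between 2137 and 2414 normalized counts in all 9 libraries. Its interval against DMSO, -0.11 to 0.12 on the log2 scale, does not reach the change of Fos (0.42).

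Fosl1 (chromosome 19, 5447547 to 5455946, + strand), the subunit that MAP kinase signalling raises in many tumour lines, had 0.941, 1.02 and 0 normalized counts in DMSO libraries, 1.02, 4.84 and 0 in LCX libraries and 3.12, 2.01 and 0 in HCX libraries. It was near the limit of these libraries in every group and was not tested. Of its 31-base stretches, 54.5% also occur in Ccdc85b on the opposite strand, and the counting strand is not given in the sources used here, so its few reads cannot be assigned with certainty.

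Among the 3 Fos family members tested, Fos and Fosl2 made up most of the RNA per kilobase of exon. Fos was 39.3 ± 4.23% of the 4 genes' summed level per kilobase in DMSO cells, 41.9 ± 0.655% in LCX cells and 46.6 ± 2.05% in HCX cells (SD, n = 3 each). Fosl2 was 56.8% in DMSO, 54.0% in LCX and 50.6% in HCX. The order of the 4 genes was the same in every group.

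Jun (chromosome 4, 95049034 to 95052222, - strand), the subunit that JNK phosphorylates, was the only Jun gene called. It had 2319, 2294 and 2290 normalized counts in DMSO libraries, 2308, 2331 and 2490 in LCX libraries and 2575, 2687 and 2759 in HCX libraries. All HCX libraries lay above all others, and the nearest was LCX 3. Its log2 fold change was 0.22 against DMSO (SE 0.05, interval 0.11 to 0.32, limma adjusted p = 0.00623) and 0.17 against LCX (interval 0.06 to 0.28, limma adjusted p = 0.0273). Against DMSO it was called under each alternative tried. Against LCX the limma call was lost without LCX 1 (0.15, adjusted p = 0.122), LCX 2 (0.16, adjusted p = 0.1), HCX 2 (0.17, adjusted p = 0.072) or HCX 3 (0.15, adjusted p = 0.0889). An antisense gene, Junos, shares 6.39% of its 31-base stretches.

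Junb (chromosome 8, 84974484 to 84978718, - strand), a Jun protein that activates less strongly than Jun, had 4930.5, 4798 and 4930.1 normalized counts in DMSO libraries, 4692, 5146 and 4633 in LCX libraries and 4903, 4937 and 4999 in HCX libraries. The groups overlapped, and the log2 fold change was 0.02 against DMSO (interval -0.08 to 0.12) and 0.04 against LCX (interval -0.06 to 0.14). Prdx2, a protein-coding gene on the opposite strand, shares 6.51% of the 31-base stretches of Junb. Jund (chromosome 8, 70698949 to 70700616, + strand), the most constitutive Jun, had 3205, 3818 and 3198 in DMSO libraries, 3475, 3584 and 3621 in LCX libraries and 3723, 3756 and 3617 in HCX libraries. DMSO 2 was its highest library and the other DMSO libraries its lowest. The log2 fold change against DMSO was 0.12 (interval from just above 0 to 0.25, limma adjusted p = 0.152). It was called without DMSO 2 (0.21, adjusted p = 0.00734), with library-size scaling (0.18, adjusted p = 0.0392) and with limma-voom (0.18, adjusted p = 0.0405). An antisense gene, Gm11175, holds 50.1% of its 31-base stretches, so its values are uncertain. Jun made up 14.8% of the Jun family's level per kilobase in DMSO, 15.0% in LCX and 16.1% in HCX.

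Egr1 (chromosome 18, 34859823 to 34864984, + strand), a zinc-finger factor induced through serum response elements, had 12131, 12568 and 8926 normalized counts in DMSO libraries, 11798, 12341 and 12219 in LCX libraries and 11927, 12998 and 11302 in HCX libraries. Only DMSO 3 stood apart. The log2 fold change against DMSO was 0.12 (interval -0.06 to 0.30, limma adjusted p = 0.344) and was -0.03 without DMSO 3, where the direction turned. Against LCX it was -0.01.

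Ier3 (chromosome 17, 35821684 to 35822923, + strand), an early response gene that modulates survival and ERK signalling, had 1446, 1447 and 1350.1 normalized counts in DMSO libraries, 1355, 1340.4 and 1353 in LCX libraries and 1122, 1156 and 998 in HCX libraries. The HCX libraries were below all others, and LCX and DMSO lay close together. The log2 fold change was -0.37 against DMSO (SE 0.07, interval -0.51 to -0.24, limma adjusted p = 0.000597) and -0.31 against LCX (interval -0.45 to -0.17, limma adjusted p = 0.0032). It kept its call in both comparisons under each of the 19 alternatives, with values from -0.42 to -0.31 against DMSO and -0.35 to -0.24 against LCX.

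Myc (chromosome 15, 61985391 to 61990374, + strand), a transcription factor that drives ribosome and metabolic genes, had 11662, 10475 and 11861 normalized counts in DMSO libraries, 11060, 11580 and 10243 in LCX libraries and 10259, 10534 and 11835 in HCX libraries. The groups overlapped. The log2 fold change was -0.06 against DMSO (interval -0.18 to 0.06, limma adjusted p = 0.521) and -0.01 against LCX. The HCX comparisons share the HCX libraries, and the DMSO libraries enter both comparisons with DMSO.

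**Figure D2:**
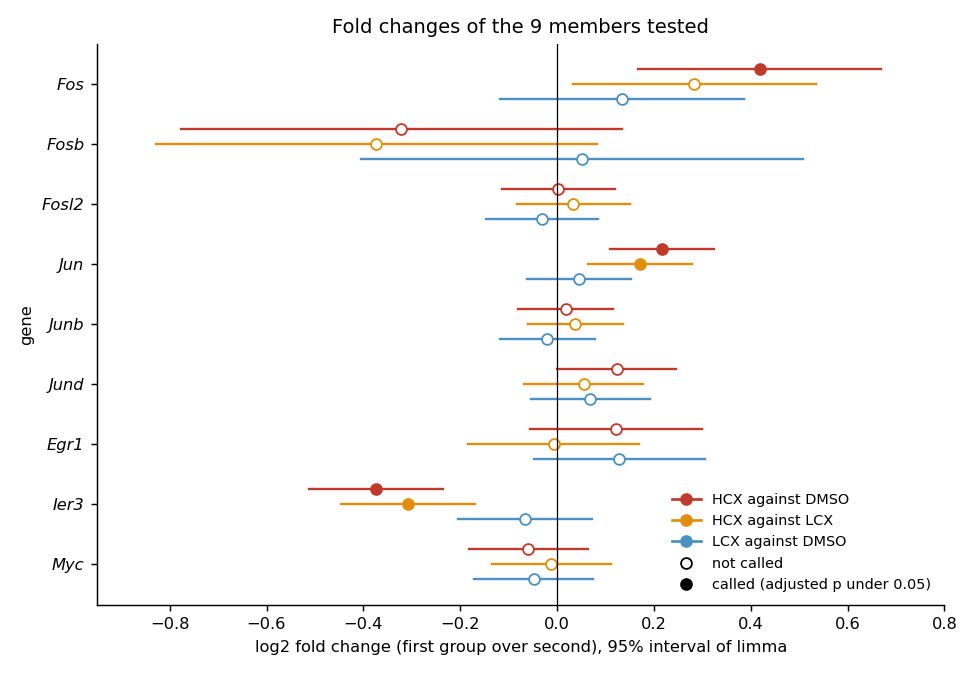
Log2 fold changes (x axis, with 95% limma intervals) of the 9 members tested, in the 3 comparisons. Filled points passed an adjusted p of 0.05: Fos, Jun and Ier3 against DMSO, and Jun and Ier3 against LCX.

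In HCX against DMSO, groups of 3 members did not overlap (Fos, Jun, Ier3), where 32.8% of all genes had groups that did not overlap. Against LCX it was 4 members (Fosb as well), where 36.5% of all genes did. Between LCX and DMSO all tested members overlapped, where 12.9% of all genes did not. The median log2 fold change of the 9 members was 0.02 against DMSO and 0.03 against LCX, and that of all genes was -0.04 against DMSO and -0.00 against LCX. In LCX against DMSO limma called 0 members and 0.00% of all genes, as did limma-voom, and 0 of 9 members had an unadjusted p under 0.05, where 807 genes (6.12%) did. The intervals of this comparison ran within -0.20 and 0.39 on the log2 scale for all members tested except Fosb, whose interval ran from -0.40 to 0.51.

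Levels can be compared between genes only per kilobase of exon. In DMSO cells the order of mean level was Myc (4171 normalized counts per kilobase), Egr1 (2500), Junb (2123), Jund (2043), Ier3 (1250), Jun (722), Fosl2 (239), Fos (167), Fosb (15.9) and Fosl1 (0.322). In DMSO the library ranges of Egr1, Junb and Jund overlapped, so their order is not settled there. Egr1 lay above both in LCX, at 2631 to 2752 per kilobase against at most 2236, and in HCX, at 2520.5 to 2899 against at most 2252, while Junb and Jund overlapped in each group. Fos and Fosl2 were apart in DMSO and LCX, but in HCX their ranges met, with Fos at 205 to 239 and Fosl2 at 237 to 244 per kilobase. Ier3 lay above Jun in all groups, at 882 to 1022 against 807 to 865 per kilobase in HCX.

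**Figure D3:**
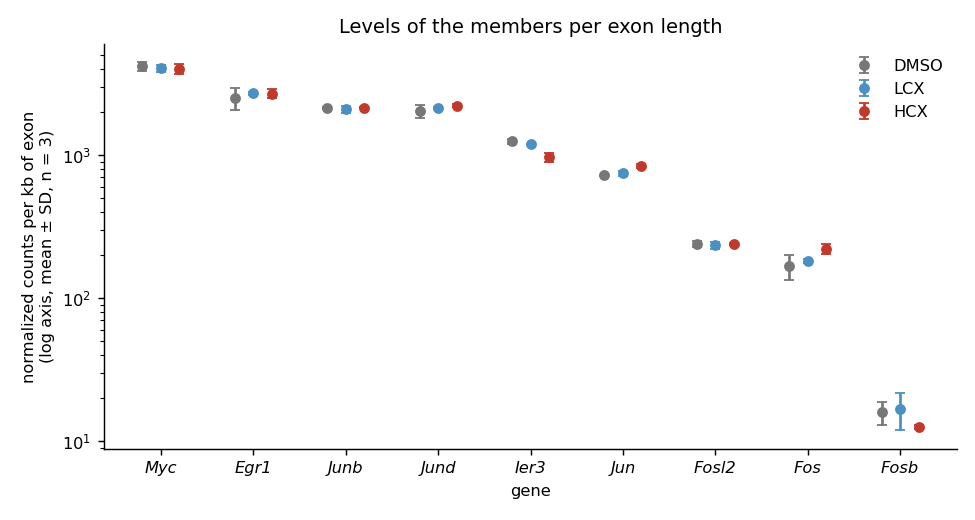
Mean normalized count per kilobase of exon (log axis) of the 9 members tested in each group, without Fosl1. Points are group means in dose order (DMSO, LCX and HCX), with bars for the SD. The order runs from Myc to Fosb, and Fos and Fosl2 come closest in HCX.

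The fold changes of Fos, Jun, Jund and Ier3 were followed over every alternative setting. Ier3 and, against DMSO, Jun stayed on their side of the threshold throughout, while Fos and Jund crossed it with single libraries.

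**Figure D4:**
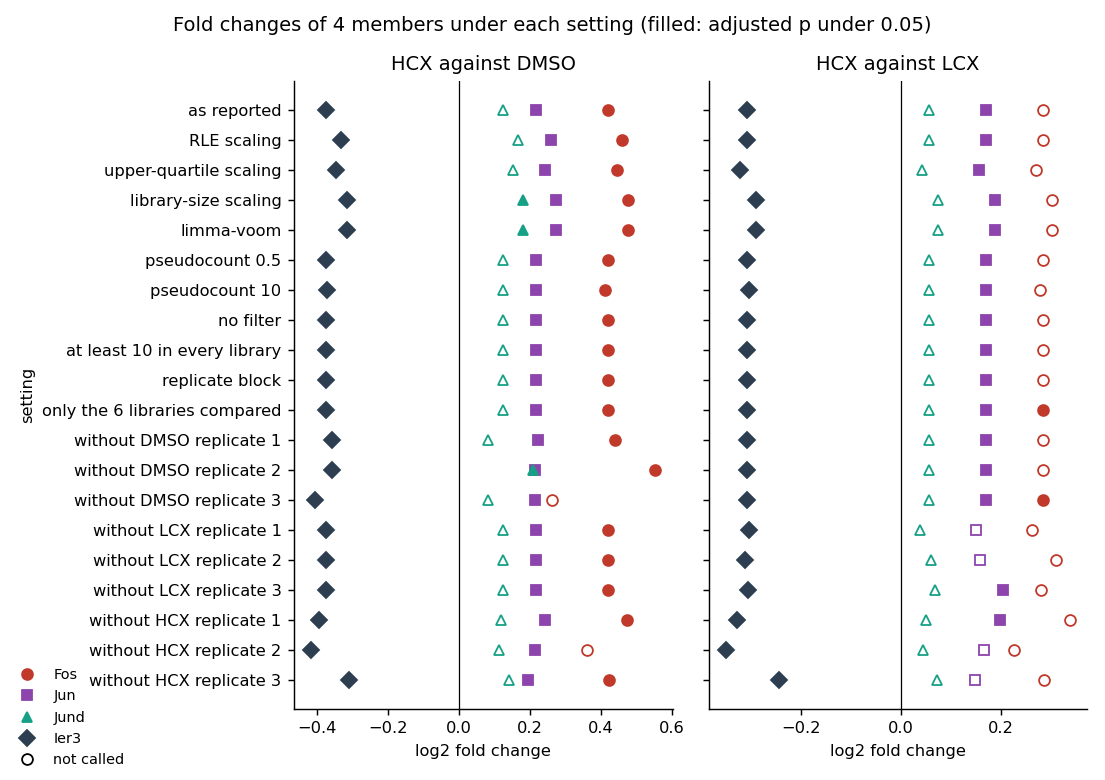
Log2 fold changes of Fos, Jun, Jund and Ier3 (x axis) under each setting (y axis), for HCX against DMSO (left) and against LCX (right), with open symbols where the adjusted p was not under 0.05. No fold change of these 4 genes changed sign in the HCX comparisons.

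Neuro2a identity was checked with 16 neuroblast markers, of which 15 reached the filter. Of those, 4 were called higher and 2 lower in HCX against DMSO, where 5.73% of all genes were higher and 13.5% lower. Phox2a averaged 5280, Hand2 11177 and Tubb3 14862 normalized counts. Neuroblast markers summed to 77014 to 79043 in DMSO, 76021 to 79281 in LCX and 86768 to 89107 in HCX. Mesenchymal markers, mostly Fn1, summed to 17004 to 19793 in DMSO, 17693 to 18836 in LCX and 13383 to 14778 in HCX. Of 5 tested, 2 were called lower in HCX than in DMSO, where 13.5% of all genes were lower. Immune and endothelial markers summed to 258 to 271 in DMSO, 272 to 285 in LCX and 169 to 226 in HCX, epithelial markers to 285 to 344 in DMSO, 265 to 309 in LCX and 174 to 209 in HCX, and glial markers to 83.0 to 117 in DMSO, 90.03 to 119.6 in LCX and 79.2 to 91.9 in HCX. Pecam1, an endothelial marker, was called lower in HCX than in DMSO (-0.44, limma adjusted p = 0.0375) and LCX (-0.59), as was the epithelial keratin Krt8 (-0.68 against DMSO, limma adjusted p = 0.00112, and -0.63 against LCX). Ptprc and Epcam averaged 0.649 and 0.224 normalized counts, and Col3a1 and Krt14 were at 0 in every library. Whether these markers have a part in the differences of Fos, Jun and Ier3 was not tested, and fewer cells of a kind cannot be told apart from less RNA per cell in bulk RNA.

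Among 43 other immediate early genes, 39 were tested, and against DMSO 10 were called higher in HCX and 3 lower, where 5.73% of all genes were higher and 13.5% lower. The median log2 fold change was 0.10, above the -0.04 of all genes. Rhob, which encodes an early response small GTPase, had 1582 ± 75.6 normalized counts in HCX and 1133 ± 58.7 in DMSO (SD, n = 3 each), a log2 fold change of 0.48 (limma adjusted p = 4.7e-05). Ier5 rose by 0.37, Sik1, a salt-inducible kinase, by 0.33 and Phlda1 by 0.40. The 3 lower genes, named after their values were seen, were Cyr61, a matricellular protein (-0.57), Nr4a1, an orphan nuclear receptor (-0.31), and Klf4 (-0.29). The Klf4 call was lost with each rescaling, with limma-voom, with no filter, with the 6 libraries alone, and without DMSO 1, HCX 1 or HCX 3 (limma adjusted p of 0.0586 to 0.173). Against LCX 13 were higher and 4 lower (8.35% and 8.95% of all genes), but 7 were higher without LCX 1 or without LCX 3, and 1 lower without LCX 1.

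**Figure D5:**
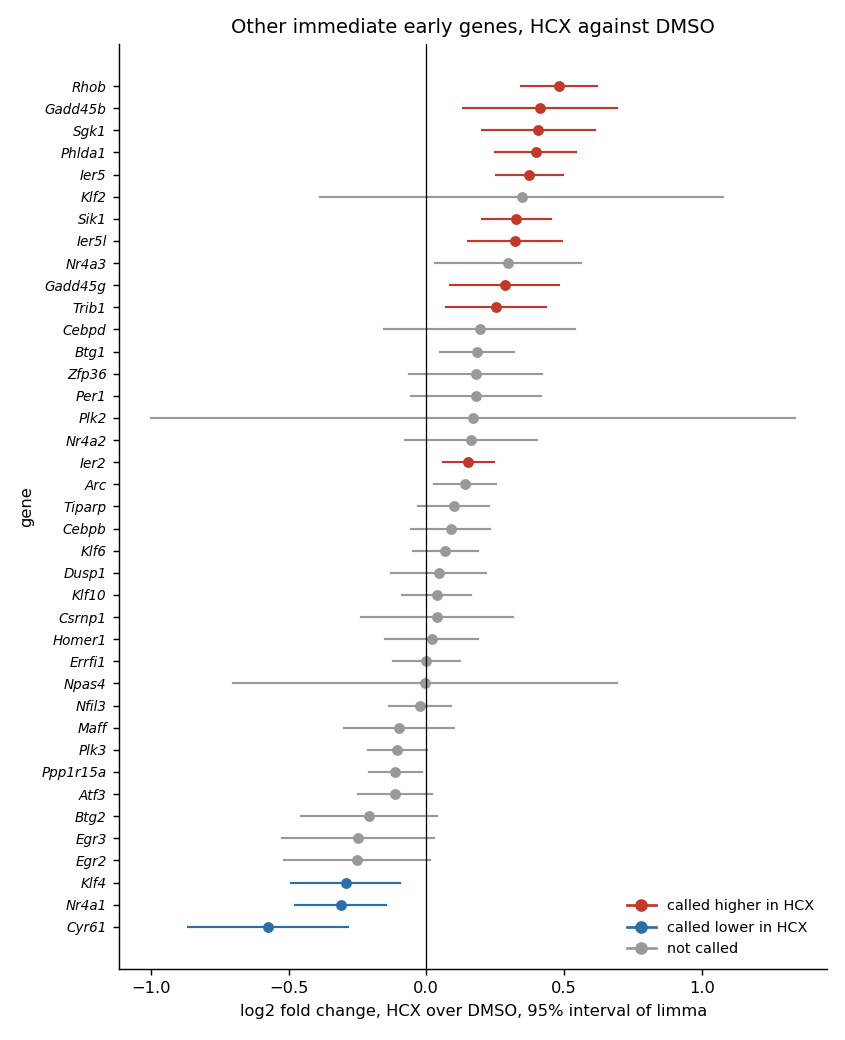
Log2 fold change (x axis, HCX over DMSO, 95% limma intervals) of the 39 other immediate early genes tested, sorted by size. 10 were called higher, led by Rhob, and 3 lower, led by Cyr61.

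Among bZIP partners of Fos and Jun, 1 of 16 tested fell against DMSO and 0 rose, where 13.5% and 5.73% of all genes did. This was Nfe2l1 (-0.13, limma adjusted p = 0.0392). The call was lost in 13 of its 19 alternatives (among them each LCX library left out, DMSO 1, DMSO 3, HCX 1 and HCX 2). Against LCX 1 of 16 was called, Jdp2 (Jun dimerization protein), higher by 0.33, where 8.35% of all genes were called higher. Jdp2 averaged 1403 normalized counts in HCX, 1257 in DMSO and 1115 in LCX, and it was not called against DMSO (0.16, limma adjusted p = 0.122). Of 26 MAP kinase cascade genes tested, 3 rose and 7 fell in HCX against DMSO (5.73% and 13.5% of all genes), but with RLE scaling 8 were higher and 3 lower, and with library-size scaling or limma-voom 10 were higher and 2 lower. Library-size scaling called 1307 of all 13179 genes higher and 966 lower. Without DMSO 1 or without HCX 1 the counts were 1 higher and 4 lower, and without HCX 3 4 were lower. Map2k7, a kinase that activates JNK, rose by 0.21 (limma adjusted p = 0.00163), while Mapk10 (JNK3) fell by 0.35 and Rps6ka4 by 0.30 on the log2 scale. Of 19 factors that bind immediate early promoters, only Atf1 was called against DMSO, lower by 0.22, where 19.2% of all genes were called. In 10 of 20 alternative settings some of these factors were called higher against DMSO, at most 3. Against LCX only Nab1, an Egr corepressor, was called, higher by 0.19, where 17.3% of all genes were called. Nab1 averaged 2391 normalized counts in HCX, 2385 in DMSO and 2100 in LCX, and its log2 fold change against DMSO was 0.004 (limma adjusted p = 0.972). The Atf1 call was lost without DMSO 1 or HCX 1 and with library-size scaling or limma-voom (adjusted p of 0.0521 to 0.0693), and the Nab1 call without LCX 2, LCX 3, HCX 1 or HCX 3 (adjusted p of 0.0555 to 0.113). Of 17 turnover genes, only Gsk3b, which phosphorylates MYC and Jun for degradation, was called against DMSO, where 19.2% of all genes were called. It fell by 0.19, a call lost under the same settings as that of Atf1 (adjusted p of 0.0511 to 0.0783).

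The list of AP-1 target genes was drawn from other cell types, and 16 of 28 were expressed enough to test. In HCX against DMSO 3 rose and 6 fell, where 5.73% of all genes rose and 13.5% fell. The median log2 fold change was -0.20, and -0.04 over all genes. Plaur, the urokinase receptor, averaged 1361 ± 111 normalized counts in HCX and 2046 ± 51.5 in DMSO (SD, n = 3 each), a log2 fold change of -0.59 (limma adjusted p = 2.26e-06). Mmp9, a metalloproteinase, changed by -1.49 and Il6, a cytokine, by -0.60, while Ezr (ezrin, an actin linker) rose by 0.38. Against LCX 3 were higher and 5 lower, where 8.35% of all genes were higher and 8.95% lower.

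Of 12 MYC network genes tested, 2 rose and 1 fell in HCX against DMSO, where 5.73% of all genes rose and 13.5% fell. Mycn, the family member amplified in neuroblastoma, rose by 0.58 (540.1 ± 69.2 normalized counts in HCX, 361 ± 57.1 in DMSO, limma adjusted p = 0.0025). Mycl fell by 0.42, and Mxd4, a MYC antagonist, rose by 0.32. The Mxd4 call (adjusted p = 0.0477) was lost without any 1 library other than DMSO 1 (adjusted p of 0.056 to 0.154). Of 29 genes that MYC activates, 1 rose in HCX against DMSO, Odc1 (0.24), and 18 fell, where 5.73% of all genes rose and 13.5% fell. The median log2 fold change was -0.17, and -0.04 over all genes. Gnl3 (nucleostemin) fell by 0.42, Mybbp1a by 0.22 and Ldha by 0.26. The count of lower genes was 9 with RLE scaling, 8 with library-size scaling or limma-voom and 10 without DMSO 3. Against LCX 7 were lower and 1 was higher, where 8.95% of all genes were lower and 8.35% higher, and 4 were lower without LCX 2 or LCX 3.

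As a description of likeness, the genes whose log2 values over the 9 libraries, which share the cell line and 3 groups, correlated most with a called member were, for Fos, Ccdc92 (r = 0.952), Pmel (0.944) and Mx2 (0.943), for Jun, Rassf3 (0.975), Tmem108 (0.969) and Rhobtb2 (0.968), and for Ier3, Scg2 (0.998), Prps1 (0.993) and Anln (0.991). The pool held 12404 genes. Scg2 had 7354 normalized counts in DMSO, 6990 in LCX and 5083 in HCX.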

How the data were processed

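RNA of 9 Neuro2a samples was sequenced from stranded mRNA libraries, 3 per group. The submitters' processing notes name Bowtie, TopHat2, Partek and mm10; their versions and the annotation are not given in the sources used here. The authors deposited 1 table of signal per gene and library, normalized counts whose totals ran from 34949840 to 36667123; whole reads could not be recovered, so a count test was not used. 24972 gene names were listed, 26 of them turned into dates and not named. Values were taken as log2(value + 1), genes with 10 or more in 3 libraries kept, and limma-trend (limma 3.58.1, R 4.3.3) fitted over all 9 libraries, with Benjamini-Hochberg adjustment per comparison. Symbols were placed on GRCm38 with GENCODE; figures used Python 3.11.15 and matplotlib 3.10.9. The procedure was tested on simulated data, where the share of false calls was on average somewhat above the threshold set. Low values give less precise changes. Members and lists were chosen with earlier results of these data known, and listed genes were named by smallest adjusted p, up to 4 called genes a list in either HCX comparison, with exceptions marked. A gene that this rule reached is not reported here. Alternatives were scalings, limma-voom, pseudocounts, filters, the replicate block, a 6-library fit, each library left out and a looser threshold.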

Additional observations from a re-analysis of the deposited data

How the results depend on the processing

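Values of single members are in the plot of settings. The count of members called higher in HCX than in DMSO was between 1 and 3 when a library was left out, and that of members called higher in HCX than in LCX between 0 and 2. It was 2 in the fit to the 6 libraries compared. Genes called between HCX and LCX numbered 1374 to 2509 when a library was left out. Between LCX and DMSO, 2 genes were called with the 6 libraries alone and 0 to 2 with a library left out. Whether the replicate numbers pair the samples is not stated in the labels, and the correlations do not settle it. Correlations of same-numbered deviations were between -0.10 and 0.10. Between HCX and DMSO each sample correlated best with its own number, but not between LCX and DMSO or between HCX and LCX. With the replicate block, 3 genes were called between LCX and DMSO, 2431 between HCX and DMSO, the call of Mxd4 was lost, and member calls stayed at 2 higher and 1 lower between HCX and DMSO. The DMSO libraries stood at 1.02 and the other 6 at 0.99 on the RLE scale. Split of all genes called between HCX and DMSO was 755 higher and 1781 lower, 1116 and 1129 with RLE, 1307 and 966 with library-size scaling, 960 and 1336 with upper-quartile scaling, 1301 and 930 with limma-voom. The cause was not tested.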

Other observations

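Ratios within a library cancel the library's scale. These were chosen after the values were seen and have no test. Fos was 3.30, 3.73 and 3.50% of Egr1 in DMSO libraries, 3.51, 3.58 and 3.47% in LCX libraries and 4.04, 4.33 and 4.58% in HCX libraries, so the HCX libraries lay apart from the others. The low DMSO 3 value of Fos stood beside a low Egr1 in the same library. Jun was 47.0, 47.8 and 46.4% of Junb in DMSO libraries, 49.2, 45.3 and 53.7% in LCX libraries and 52.5, 54.4 and 55.2% in HCX libraries, with LCX 3 above HCX 1. Jun over Jund did not set HCX apart: Jun was 72.3, 60.1 and 71.6% of Jund in DMSO libraries, 66.4, 65.05 and 68.7% in LCX libraries and 69.2, 71.5 and 76.3% in HCX libraries. Fos was 14.1 to 20.1% of Fosl2 in DMSO, 18.3 to 19.9% in LCX and 20.9 to 24.5% in HCX, and Fosb 3.24 to 5.02% of Fosl2 in DMSO, 3.71 to 6.51% in LCX and 3.25 to 3.52% in HCX. These 5 ratios are all that were computed.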
